A study of Arabidopsis with 12 samples.

Results

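Cytochrome P450 and glutathione transferase genes were followed across 2 genotypes and 2 media in whole Arabidopsis seedlings. Members were all probe sets annotated to 1 gene whose symbol begins with CYP or with GSTU, GSTF, GSTT, GSTZ or GSTL followed by a number. This rule took 42 of the 38408 probe sets of the array, 1 for each of 42 genes, out of 288 genes of the reference with such symbols. The rest of those genes were not analysed here. Of the 42, 14 were glutathione transferases, namely 11 of the tau class, 2 of the phi class and 1 of the lambda class. A further 26 were P450s, of which 20 belonged to the CYP71B subfamily, 1 was the CYP71B pseudogene CYP71B30P and 5 belonged to other families. The remaining 2, CYP59 and CYP71, share the CYP prefix but are annotated as cyclophilins, which are protein-folding enzymes, so the label of P450 and glutathione transferase genes holds for 40 of the 42.

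The 4 groups were tori 35-7 under water deficit, tori 35-7 on control medium, Col-0 under water deficit and Col-0 on control medium, with 3 arrays each. Col-0 is the common laboratory accession. The labels name tori 35-7 without an allele or a construct, and the title of the series refers to TOR, the growth-controlling Target of Rapamycin kinase. All seedlings grew for 5 days and then spent 72 h on the new medium, with 2% agar for water deficit or 0.8% agar for control, and were 8 days old at sampling. Whether the replicates were grown separately is not in the labels, so the spread behind each p-value may be technical.

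Cytochrome P450s are membrane-bound haem enzymes that insert an oxygen atom into hormones, pigments, defence compounds and foreign chemicals. Glutathione transferases couple the tripeptide glutathione to reactive molecules, which marks them for transport into the vacuole. Together with glucosyltransferases they form the detoxification route of plant cells, and many tau class genes are known to be induced by stress and by xenobiotics. The CYP71B subfamily is one of the largest P450 subfamilies of Arabidopsis and lies largely in tandem arrays of close relatives.

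Values are log2 probe set levels, and changes are log2 differences with the standard error of a limma model fitted to all 12 arrays. The change threshold was an adjusted p of 0.05 with Benjamini-Hochberg adjustment over all 16550 genes tested. Probe sets differ in brightness for reasons other than transcript number, so levels are compared between arrays and not between genes. Of the 42 probe sets, 23 had a mean level at or below 2.99, the median of all genes, and 19 lay above it. Among these 23 were all 5 P450s outside CYP71B and 12 of the 20 CYP71B genes. The table holds no detection calls, so whether these dim probe sets measured a transcript was not tested. No member shared an identical row of values with another probe set.

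Array medians lay between 3.06 and 3.19. Col-0 water deficit replicate 1 and tori 35-7 control replicate 1 stood apart by a narrow interquartile range, 2.56 and 2.68, against 2.91 to 3.08 on the other 10 arrays. They were the arrays that deviated most from their group mean for 10 and for 7 of the 42 members. For all genes the shares of these arrays were 29.6% and 14%. In whole seedlings a change in the share of a cell type and a change in RNA per cell cannot be told apart. Of the markers listed, 3 of 9 for green tissue, 2 of 6 for root hairs and 4 of 7 for the stomatal lineage were measured. None of 12 root markers was.

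GSTU25 (AT1G17180), a tau class glutathione transferase, was higher under water deficit in both genotypes and was the one member past the threshold in either. In tori 35-7 the levels were 6.13, 6.60 and 6.37 under water deficit, against 4.63, 5.06 and 4.57 on control medium. In Col-0 they were 5.93, 6.22 and 5.67 under water deficit, against 3.94, 4.17 and 3.98 on control medium. All arrays under water deficit thus lay above all control arrays of either genotype. The rise was 1.61 ± 0.18 or 3.06-fold in tori 35-7 (adjusted p = 0.00044) and 1.91 ± 0.18 or 3.75-fold in Col-0 (adjusted p = 8.43e-05). GSTU25 ranked 8 of all 16550 genes by size of rise in tori 35-7 and 7 in Col-0. The call held under all 22 alternative settings, with rises of 1.49 to 1.77 in tori 35-7 and 1.77 to 2.04 in Col-0. Many of these settings could change its p but not its difference. They were leaving out an array of the other genotype, the filter on dim genes, the trended and robust priors, the replicate block and the fit on 6 arrays. As each member has 1 probe set, averaging the probe sets of a gene and fitting all probe sets were also of this kind.

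The 4 group means of GSTU25 ran 6.37 ± 0.24 in tori 35-7 under water deficit, 5.94 ± 0.27 in Col-0 under water deficit, 4.76 ± 0.27 in tori 35-7 on control medium and 4.03 ± 0.13 in Col-0 on control medium (SD, n = 3). Neighbouring groups in this order that shared a medium did not pass the test. On control medium tori 35-7 was 0.73 ± 0.18 above Col-0 (adjusted p = 0.105), with arrays that did not overlap. Under water deficit the difference was 0.43 ± 0.18 (adjusted p = 0.32), and the lowest tori 35-7 array, at 6.13, lay below the highest Col-0 array, at 6.22. The response in tori 35-7 minus that in Col-0 was -0.30 ± 0.25 (adjusted p = 0.874), with a 95% interval of -0.84 to 0.24.

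Each water-deficit comparison therefore called 1 of the 42 members. In tori 35-7, 1.16% of all genes were called, 0.822% higher and 0.338% lower. In Col-0 1.23% were called, 0.671% higher and 0.556% lower. The members' share of 2.38%, a single gene, is near this background. Groups did not overlap for 13 members in tori 35-7, or 31%, beside 18.9% of all genes, and for 10 members in Col-0, or 23.8%, beside 15.7% of all genes. The median change of the members was -0.04 in tori 35-7 and 0.05 in Col-0, and that of all genes 0.01 in both. The 41 members other than GSTU25 differed by -0.51 to 0.64 in tori 35-7 and by -0.89 to 0.60 in Col-0, all less than 2-fold. The responses of the genotypes, which share no arrays, had the same sign for 23 of the 42 members, or 54.8%, beside 55.1% of all genes. Among members above the median level of all genes it was 13 of 19, or 68.4%, beside 59.7% of all genes above that level.

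**Figure D1:**
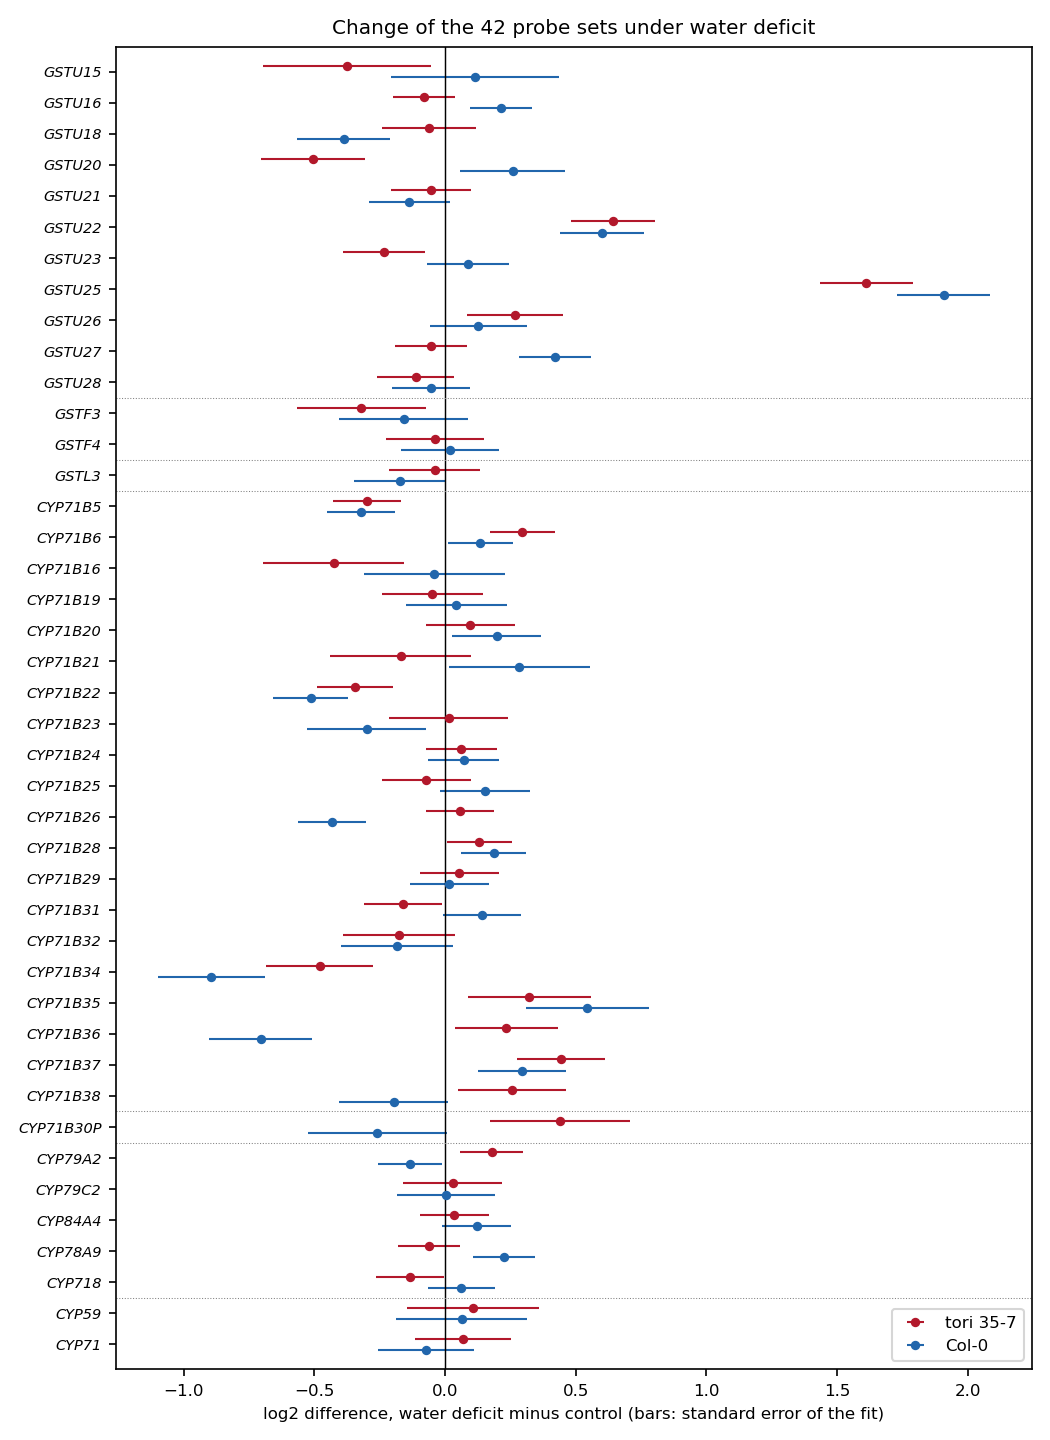
Change of each of the 42 probe sets under water deficit relative to control medium, as a log2 difference on the horizontal axis, in tori 35-7 (red) and Col-0 (blue). Bars are standard errors of the fit and dotted lines separate tau, phi and lambda class transferases, CYP71B genes, the pseudogene, other P450s and cyclophilins; GSTU25 lies at 1.61 in tori 35-7 and 1.91 in Col-0, and all other points lie between -0.89 and 0.64.

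Of the tau class, whose members are known for conjugating herbicides and stress metabolites, 11 were measured, and 1 rose in each genotype, while 10 did not pass. That share of 9.09% is GSTU25 alone, beside 1.16% of all genes in tori 35-7 and 1.23% in Col-0. GSTU26 (AT1G17190) directly follows GSTU25 in the order of genes. Its levels were 4.84, 4.98 and 5.04 under water deficit and 4.44, 4.84 and 4.78 on control medium in tori 35-7. In Col-0 they were 4.59, 4.93 and 5.16 under water deficit and 4.90, 5.00 and 4.39 on control medium. The media overlapped in Col-0, while in tori 35-7 the lowest water-deficit array, at 4.844, lay just above the highest control array, at 4.836. The difference was 0.27 ± 0.18 in tori 35-7 and 0.13 ± 0.18 in Col-0 (adjusted p = 0.751 and 0.838), with 95% intervals of -0.13 to 0.66 and -0.27 to 0.52. The upper ends of both intervals lie under the lower ends for GSTU25, 1.23 and 1.53.

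GSTU22 (AT1G78340) had the second largest positive difference among the members in both genotypes. It stood at 3.68, 3.73 and 3.66 under water deficit and at 2.85, 3.14 and 3.15 on control medium in tori 35-7. In Col-0 it stood at 3.32, 3.87 and 3.25 under water deficit and at 2.77, 2.91 and 2.97 on control medium. No array overlapped between media in either genotype. The differences of 0.64 ± 0.16 and 0.60 ± 0.16 did not pass (adjusted p = 0.0806 and 0.0902). In tori 35-7 GSTU22 passed when either of 2 Col-0 water deficit arrays, which enter only through the shared spread, was left out (adjusted p = 0.0408 without replicate 1 and 0.0203 without replicate 2). There it also passed in the limma fit on only the 6 arrays compared (0.0327), with quantile normalization (0.0461) and with array weights (0.0122). In Col-0 it passed without the 2 arrays of narrow spread (adjusted p = 0.0369).

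GSTU22 belongs to a row of 4 measured tau genes, GSTU23, GSTU22, GSTU21 and GSTU20, which are close neighbours. GSTU20 (AT1G78370), also known as an interactor of the jasmonate-conjugating enzyme FIN219, had differences of opposite sign in the genotypes, neither past the threshold. In tori 35-7 its levels were 7.63, 7.63 and 7.23 under water deficit and 8.10, 8.02 and 7.89 on control medium, without overlap. In Col-0 they were 8.54, 8.10 and 7.63 under water deficit and 7.99, 7.89 and 7.61 on control medium, with overlap. The difference was -0.51 ± 0.20 in tori 35-7 (adjusted p = 0.389) and 0.26 ± 0.20 in Col-0 (adjusted p = 0.656). Without Col-0 water deficit replicate 1, the array at 8.54, the Col-0 difference was 0.03. The interaction was -0.76 ± 0.28 (adjusted p = 0.793), so a difference between the responses was not shown. GSTU23 and GSTU21 differed by -0.23 and -0.05 in tori 35-7 and by 0.09 and -0.14 in Col-0.

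GSTU27 (AT3G43800) did not pass in either genotype. Its levels in tori 35-7 were 5.89, 5.74 and 5.74 under water deficit, against 6.08, 5.75 and 5.70 on control medium. In Col-0 they were 5.77, 6.08 and 6.03 under water deficit, against 5.48, 5.56 and 5.57 on control medium. The Col-0 arrays did not overlap between media, and the tori 35-7 arrays did. The differences were -0.05 ± 0.14 and 0.42 ± 0.14 (adjusted p = 0.973 and 0.17), and the Col-0 one passed without the 2 arrays of narrow spread (0.0288). The interaction was -0.47 ± 0.19 (adjusted p = 0.807).

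The other tau genes gave smaller or noisier values. GSTU18 differed by -0.39 ± 0.18 between media in Col-0 (adjusted p = 0.38), where replicate 1, one of the arrays of narrow spread, held 3.16 and the others 4.04 and 3.65. GSTU15 had 3.45 in tori 35-7 control replicate 1, the second such array, against 2.05 and 1.98 in the other replicates, so its SD of 0.83 there exceeded its difference of -0.37 ± 0.32. GSTU16 and GSTU28 differed by at most 0.21 between media in either genotype.

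**Figure D2:**
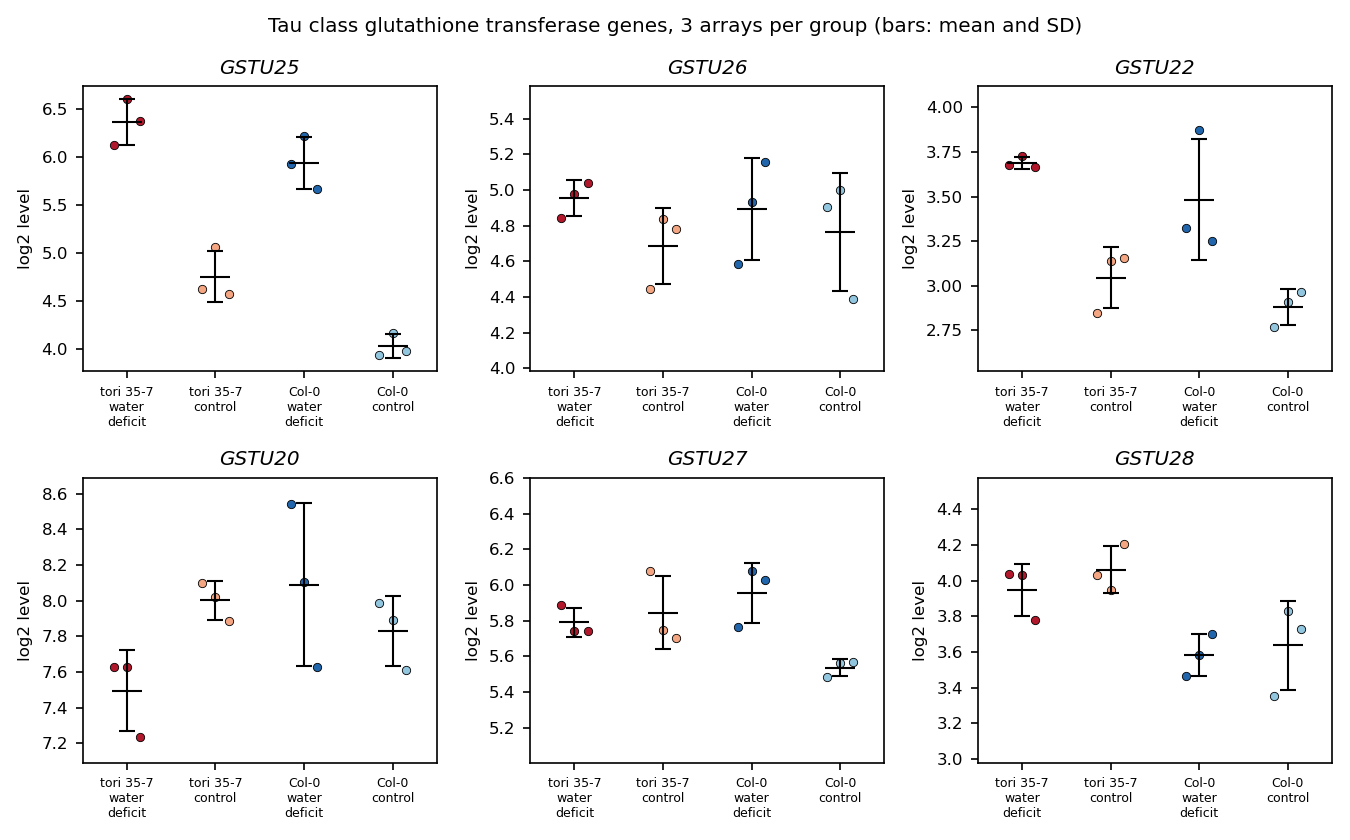
Log2 levels of 6 tau class glutathione transferase genes on each of the 12 arrays, with tori 35-7 left of Col-0 and water deficit left of control; bars mark the mean and SD of 3 arrays. GSTU25 lies between 5.67 and 6.60 under water deficit and between 3.94 and 5.06 on control medium, whereas the arrays of its neighbour GSTU26 overlap in Col-0; the vertical scale differs between panels.

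The 2 phi class genes, a class with both transferase and ligand-carrying members, did not change past the threshold. GSTF4 differed by -0.04 in tori 35-7 and 0.02 in Col-0, and GSTF3 by -0.32 ± 0.25 and -0.16 ± 0.25. GSTF3 is dim, and 1 array, tori 35-7 control replicate 1, held 3.05, against 1.76 and 2.00 in the other replicates. GSTL3 (AT5G02790), of the lambda class that reduces rather than conjugates its substrates, had 9.31, 9.24 and 9.28 in tori 35-7 under water deficit and 9.15, 9.38 and 9.41 on control medium. In Col-0 it had 8.74, 9.51 and 9.38 under water deficit and 9.26, 9.50 and 9.39 on control medium. The lowest value belonged to Col-0 water deficit replicate 1. The differences were -0.04 ± 0.17 and -0.17 ± 0.17, with 95% intervals of -0.41 to 0.33 and -0.55 to 0.20.

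Among the 26 P450 genes none passed in either genotype. At an unadjusted p under 0.05 there were 5 in tori 35-7, 2 higher and 3 lower under water deficit, and 6 in Col-0, 1 higher and 5 lower. All of these belonged to CYP71B, as do 20 of the 26, and the 5 P450s of other families were all at or below the median level of all genes. The 5 in tori 35-7 and the 6 in Col-0 are 19.2% and 23.1% of the 26, beside 9.55% and 12.9% of all genes. The medians of the 26 differences were 0.03 in both genotypes.

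CYP71B34 (AT3G26300) had the largest negative difference among them in both genotypes and lay just outside the threshold in Col-0. Its levels in tori 35-7 were 5.91, 6.11 and 6.18 under water deficit and 6.44, 6.57 and 6.62 on control medium. In Col-0 they were 5.09, 5.74 and 5.77 under water deficit and 6.03, 6.44 and 6.81 on control medium. The media did not overlap in either genotype, and the lowest array was Col-0 water deficit replicate 1. The difference was -0.48 ± 0.21 in tori 35-7 (adjusted p = 0.453) and -0.89 ± 0.21, or 1.86-fold lower, in Col-0 (adjusted p = 0.0503). It passed in Col-0 under 8 of 22 alternative settings, among them those that left out Col-0 control replicate 1 (0.0388), Col-0 water deficit replicate 2 (0.0454) or Col-0 water deficit replicate 3 (0.0445). Without Col-0 water deficit replicate 1, the array of narrow spread at 5.09, the Col-0 difference was -0.67 and did not pass. Nor did it pass without the 2 arrays of narrow spread. Over all 22 settings the Col-0 difference ran from -1.09 to -0.67 and the adjusted p from 0.0105 to 0.269. The interaction was 0.42 ± 0.29 (adjusted p = 0.841).

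CYP71B34 is 1 of 13 measured CYP71B genes that form a single neighbourhood, in which no more than 10 genes of the reference separate consecutive members. None of the 13 passed in either genotype. CYP71B35, the next gene, had 4.51, 3.53 and 3.68 under water deficit and 3.57, 3.48 and 3.70 on control medium in tori 35-7. Its Col-0 levels averaged 3.91 ± 0.29 under water deficit and 3.36 ± 0.32 on control medium (SD, n = 3). The arrays overlapped in tori 35-7 and, only just, in Col-0, where the lowest water-deficit array was at 3.578 and the highest control array at 3.583. The differences were 0.32 ± 0.24 in tori 35-7 and 0.54 ± 0.24 in Col-0 (adjusted p = 0.781 and 0.342). Without tori 35-7 water deficit replicate 1, the array at 4.51, the difference in tori 35-7 was 0.02. CYP71B36 (AT3G26320) held 4.53, 4.60 and 4.63 under water deficit and 4.69, 3.90 and 4.46 on control medium in tori 35-7. In Col-0 it held 3.98, 3.84 and 4.2 under water deficit and 4.97, 4.79 and 4.38 on control medium. Only the Col-0 arrays were without overlap. The differences were 0.24 ± 0.20 and -0.71 ± 0.20 (adjusted p = 0.822 and 0.102), and the interaction of 0.94 ± 0.28 was the largest among the members without passing (adjusted p = 0.763). CYP71B37, the last gene, was higher by 0.44 ± 0.17 and 0.30 ± 0.17 (adjusted p = 0.351 and 0.503).

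Earlier in the same row, CYP71B22 had lower values under water deficit in both genotypes without passing. Its levels were 1.92, 2.26 and 2.05 under water deficit and 2.31, 2.44 and 2.52 on control medium in tori 35-7. They were 2.07, 2.24 and 2.03 under water deficit and 2.73, 2.37 and 2.78 on control medium in Col-0. The media did not overlap, and the differences were -0.34 ± 0.14 and -0.51 ± 0.14 (adjusted p = 0.436 and 0.107). CYP71B26 had 2.27, 2.41 and 2.54 under water deficit and 2.17, 2.39 and 2.50 on control medium in tori 35-7. In Col-0 it had 2.36, 2.37 and 2.56 under water deficit and 2.89, 2.89 and 2.81 on control medium. The Col-0 control arrays lay above the other 9, and the difference was 0.06 ± 0.13 in tori 35-7 and -0.43 ± 0.13 in Col-0 (adjusted p = 0.968 and 0.138). CYP71B22 and CYP71B26 are dim, below the median of all genes. The other 7 genes of the row differed by -0.43 to 0.10 in tori 35-7 and by -0.30 to 0.28 in Col-0.

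CYP71B21 and CYP71B16 in that row had single high arrays. CYP71B21 held 3.71 in Col-0 water deficit replicate 1, against 2.21 and 2.52 in the other replicates. CYP71B16 held 3.62 in tori 35-7 control replicate 1, against 2.44 and 2.52, and 3.06 in Col-0 water deficit replicate 1, against 2.32 and 2.27. Both arrays are those of narrow spread. The difference of CYP71B21 in Col-0 was 0.28 ± 0.27, and that of CYP71B16 in tori 35-7 was -0.43 ± 0.27, or -0.05 without the control array named. CYP71B24 was at 1.65 to 2.05 on all 12 arrays. The genes of this row are close relatives, and signal from one may reach the probes of another.

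**Figure D3:**
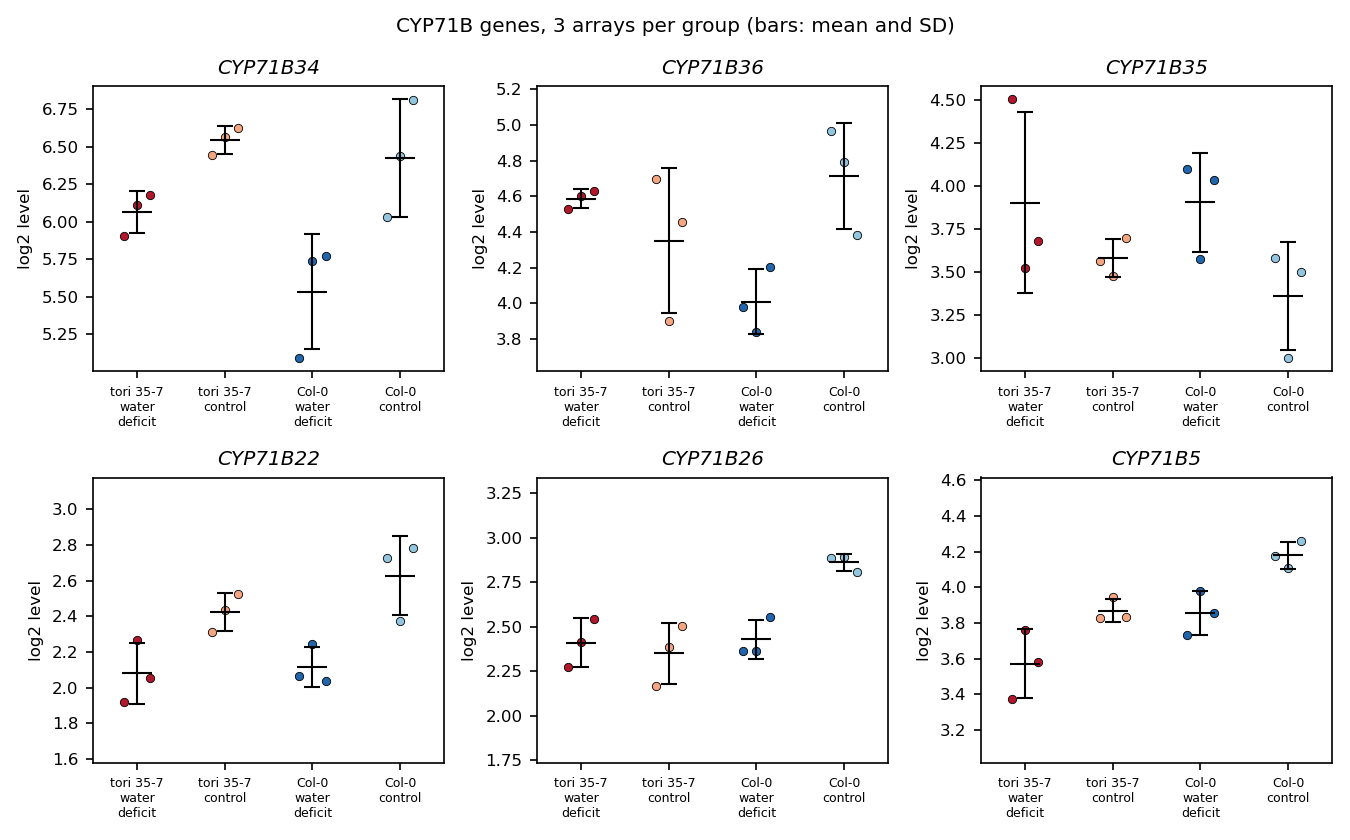
Log2 levels of 6 CYP71B genes on each of the 12 arrays, with tori 35-7 left of Col-0 and water deficit left of control; bars mark the mean and SD of 3 arrays. CYP71B34 lies between 5.09 and 6.18 under water deficit and between 6.03 and 6.81 on control medium, and CYP71B36 lies between 3.84 and 4.63 under water deficit and between 3.90 and 4.97 on control medium; the vertical scale differs between panels.

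A second row of neighbours holds CYP71B5, the pseudogene CYP71B30P, CYP71B31 and CYP71B32. CYP71B5 (AT3G53280) had 3.37, 3.76 and 3.58 in tori 35-7 under water deficit and 3.83, 3.94 and 3.83 on control medium. In Col-0 it had 3.73, 3.98 and 3.85 under water deficit and 4.17, 4.11 and 4.26 on control medium. The media did not overlap in either genotype, and the differences of -0.30 ± 0.13 and -0.32 ± 0.13 were alike in size but did not pass (adjusted p = 0.474 and 0.3). CYP71B31, known to oxidise the floral scent compound linalool, was at 1.76 to 2.26 on all 12 arrays, and CYP71B32 differed by -0.18 ± 0.21 between media in both genotypes. CYP71B30P had 3.28 on 1 array, tori 35-7 water deficit replicate 2, and 1.76 to 2.22 on the other 11, which made up its difference of 0.44 ± 0.27 in tori 35-7.

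Outside these rows, CYP71B6, which converts indole-3-acetonitrile in the pathway of indole-derived defence compounds, had 5.42, 5.68 and 5.69 under water deficit and 5.25, 5.32 and 5.34 on control medium in tori 35-7. Its Col-0 levels were 5.40, 5.51 and 5.39 under water deficit and 5.43, 5.20 and 5.26 on control medium. The difference was 0.30 ± 0.12 in tori 35-7, without overlap, and 0.14 ± 0.12 in Col-0, with overlap (adjusted p = 0.436 and 0.728). CYP71B28 and CYP71B29, a pair of neighbours, differed by 0.13 and 0.05 in tori 35-7 and by 0.19 and 0.02 in Col-0. CYP71B38 differed by 0.26 ± 0.21 and -0.20 ± 0.21.

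The 5 P450s of other families stayed within -0.13 to 0.18 in tori 35-7 and -0.13 to 0.22 in Col-0. They were CYP79A2, which starts the synthesis of benzylglucosinolate, its relative CYP79C2, CYP84A4 of arabidopyrone synthesis, CYP78A9, a promoter of fruit and seed growth, and CYP718. Of these CYP78A9 had the largest difference, 0.22 ± 0.12 in Col-0 (adjusted p = 0.459). The cyclophilins CYP59, which binds RNA and RNA polymerase II, and CYP71, a chromatin-associated protein, differed by 0.11 and 0.07 in tori 35-7 and by 0.06 and -0.07 in Col-0.

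The genotypes were then compared on each medium, which uses the same arrays and is not independent of the responses above. Among the 42 members none passed under water deficit, where 0.822% of all genes were called, 0.495% higher and 0.326% lower. None passed on control medium, where 0.568% were called, 0.272% higher and 0.296% lower. With limma at an unadjusted p under 0.05 there were 8 members under water deficit, or 19%, and 6 on control medium, or 14.3%, beside 12.8% and 9.97% of all genes. Groups did not overlap for 7 members under water deficit, or 16.7%, and for 6 on control medium, or 14.3%, beside 16.7% and 19.2% of all genes. The median difference, tori 35-7 minus Col-0, was -0.01 and 0.03, against -0.01 on both media over all genes.

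GSTU28 (AT1G53680) was higher in tori 35-7 on both media without passing. It had 4.03, 4.03 and 3.78 in tori 35-7 and 3.46, 3.58 and 3.70 in Col-0 under water deficit. On control medium it had 4.03, 3.95 and 4.2 in tori 35-7 and 3.35, 3.83 and 3.73 in Col-0. The genotypes did not overlap on either medium, and the differences were 0.37 ± 0.15 and 0.43 ± 0.15 (adjusted p = 0.306 and 0.291). For CYP71B5 tori 35-7 minus Col-0 was -0.28 ± 0.13 under water deficit and -0.31 ± 0.13 on control medium (adjusted p = 0.379 and 0.426).

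Under water deficit alone, GSTU20 had the largest negative difference, -0.59 ± 0.20 (adjusted p = 0.2). It passed without Col-0 water deficit replicate 3 (-0.83, adjusted p = 0.0431), while without Col-0 water deficit replicate 1, an array of narrow spread, it was -0.37 (adjusted p = 0.364). CYP71B36 and CYP71B34 had the largest positive ones, 0.58 ± 0.20 and 0.53 ± 0.21 (adjusted p = 0.202 and 0.273), apart from the 0.53 ± 0.27 of CYP71B30P, which rests on the single array named above. CYP78A9 and CYP718 differed by -0.34 ± 0.12 and -0.28 ± 0.13 (adjusted p = 0.218 and 0.383). On control medium CYP71B26 had the largest negative difference, -0.51 ± 0.13 (adjusted p = 0.124), followed by CYP71B38 with -0.45 ± 0.21 (adjusted p = 0.49) and CYP71B23 with -0.38 ± 0.23 (adjusted p = 0.655). CYP71B23 had 4.04, 3.75 and 4.40 in tori 35-7 and 4.69, 4.45 and 4.19 in Col-0 there, with overlap. GSTU15 differed by 0.35 ± 0.32 (adjusted p = 0.817), with the single high array named above. GSTU27 was 0.31 ± 0.14 higher in tori 35-7 there (adjusted p = 0.47).

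**Figure D4:**
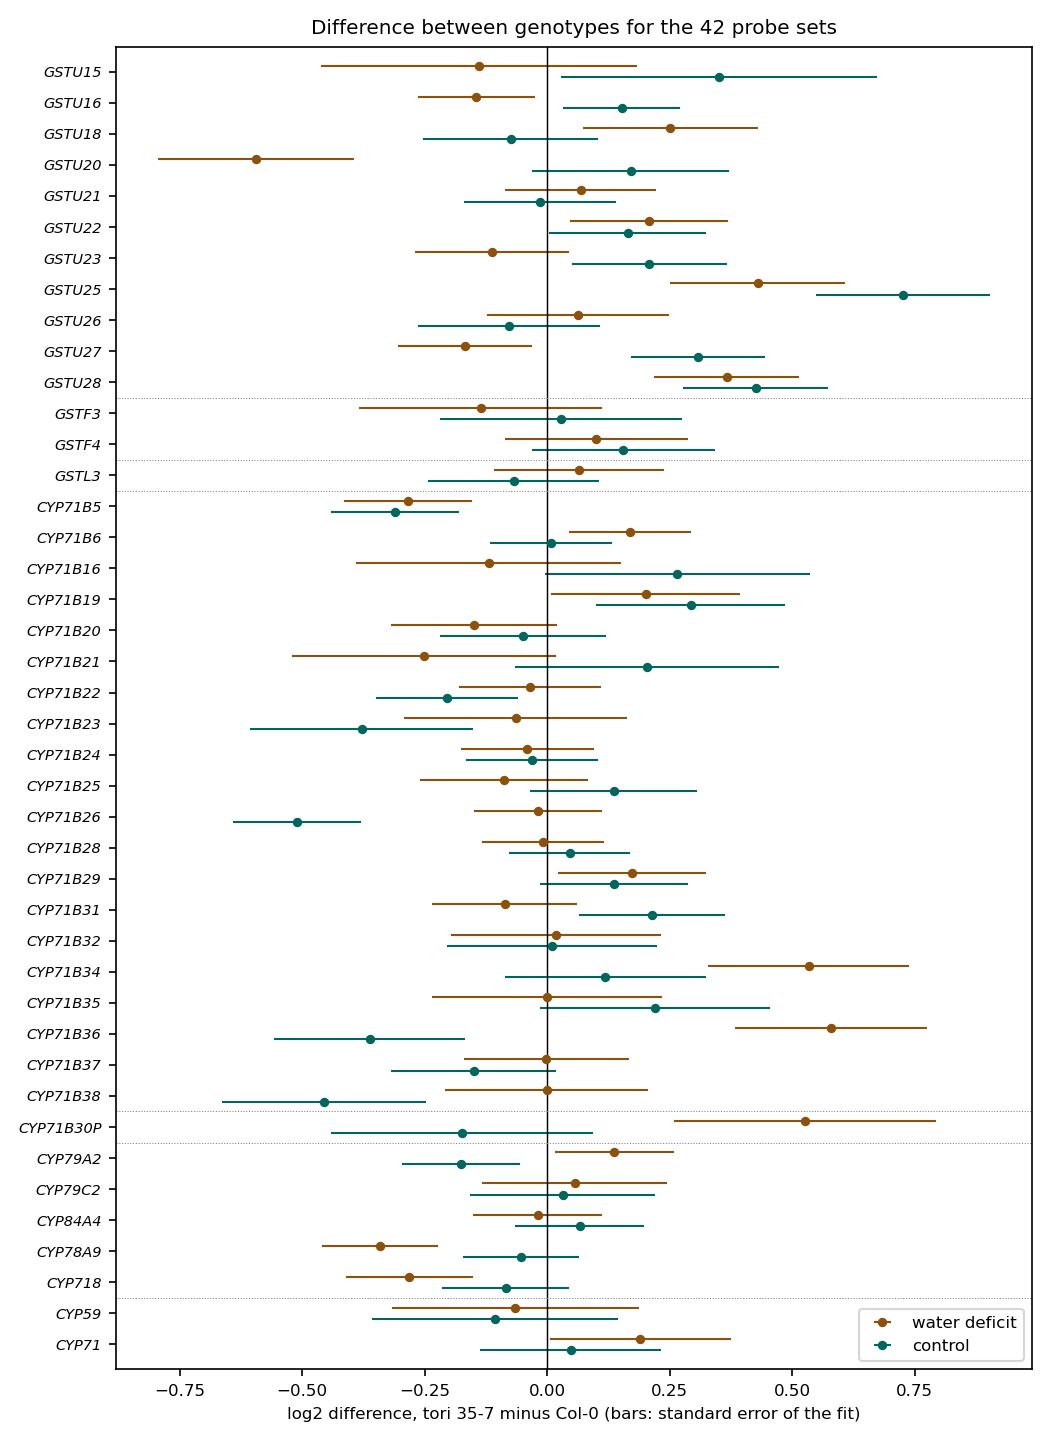
Difference between the genotypes for each of the 42 probe sets, as log2 tori 35-7 minus Col-0 on the horizontal axis, under water deficit (brown) and on control medium (green). Bars are standard errors of the fit, and classes are separated as in the plot of changes under water deficit; the points lie between -0.59 and 0.73, the highest being GSTU25 on control medium.

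The interaction, the response in tori 35-7 minus that in Col-0, asked whether any member responded differently in the 2 genotypes. No member passed, where 0.00604% of all genes, 1 gene with a negative value, did, and 0% had a positive one. With limma at an unadjusted p under 0.05 there were 4 members, or 9.52%, beside 6.08% of all genes: CYP71B36 and CYP71B26 with positive values, 0.94 ± 0.28 and 0.49 ± 0.18, and GSTU20 and GSTU27 with negative ones. CYP71B30P at 0.70 ± 0.38 and GSTU15 at -0.49 ± 0.46, each with a single high array, did not reach it. None of the 21 alternative fits of the interaction brought a member past the threshold.

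Genes that act with these enzymes were taken from lists chosen with earlier results known. Of 18 genes known to be induced by xenobiotics alongside tau class transferases, 10 were measured, and 2 rose and 8 did not pass in each genotype, a share of 20% beside 1.16% of all genes in tori 35-7 and 1.23% in Col-0. The median difference of the 10 was 0.05 in tori 35-7 and 0.22 in Col-0, against 0.01 over all genes in both. UGT73B4 (AT2G15490), a glucosyltransferase that acts on foreign phenols, had 6.74, 6.98 and 6.99 in tori 35-7 under water deficit and 5.37, 5.75 and 5.35 on control medium. In Col-0 it had 6.69, 6.29 and 6.73 under water deficit and 5.74, 5.53 and 5.86 on control medium. It rose by 1.41 ± 0.16 in tori 35-7 (adjusted p = 0.000534) and by 0.86 ± 0.16 in Col-0 (adjusted p = 0.0175), without overlap.

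UGT73C6 (AT2G36790), a flavonol glucosyltransferase, had 4.36, 4.26 and 3.93 in tori 35-7 under water deficit and 3.24, 2.96 and 2.93 on control medium. In Col-0 it had 3.40, 3.89 and 4.16 under water deficit and 2.55, 2.92 and 2.86 on control medium. It rose by 1.14 ± 0.19 in tori 35-7 (adjusted p = 0.00824) and by 1.04 ± 0.19 in Col-0 (adjusted p = 0.0153). Its close relative UGT73C1 had differences of the other sign, -0.69 ± 0.20 and -0.61 ± 0.20, which did not pass (adjusted p = 0.139 and 0.164). Between such relatives, too, signal may be shared.

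Glutathione reductases GR1 and GR, which keep glutathione in its reduced form, were the 2 measured of 10 genes of glutathione synthesis and turnover. GR1 differed by 0.17 ± 0.13 in tori 35-7 and 0.09 ± 0.13 in Col-0, and GR by -0.17 ± 0.12 and -0.26 ± 0.12, none past the threshold. The 8 genes that supply electrons to P450s, the 10 transporters of conjugates and the 8 TGA and SCL14 regulators on the lists were not analysed here.

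The tissue markers measured were 3 of 9 listed for green tissue, 4 of 7 for the stomatal lineage and 2 of 6 for root hairs. Of the measured ones, 1 of 3 for green tissue passed in each genotype. For the stomatal lineage 1 of 4 passed in tori 35-7 and none in Col-0, and neither of 2 for root hairs passed. Over all genes 1.16% were called in tori 35-7 and 1.23% in Col-0. LHCB4.2, an antenna protein of photosystem II, rose by 1.08 ± 0.15 in tori 35-7 (adjusted p = 0.00271) and 0.71 ± 0.15 in Col-0 (adjusted p = 0.0372). The other green tissue markers did not pass: LHCB4.1 differed by 0.52 ± 0.14 in tori 35-7 and 0.48 ± 0.14 in Col-0, and PSAE-1 by 0.52 ± 0.16 and -0.08 ± 0.16. The log2 of the summed linear level of the 3 ran from 10.4 to 10.6 in tori 35-7 under water deficit, against 9.88 to 10.03 on control medium. In Col-0 it ran from 9.67 to 10.07 under water deficit, against 9.73 to 9.96 on control medium. FMA, a regulator of guard cell fate, rose in tori 35-7 by 0.85 ± 0.18 (adjusted p = 0.0353), and the summed level of the 4 stomatal markers overlapped between media in both genotypes. With limma at an unadjusted p under 0.05, 3 of the 4 were higher in Col-0 and 1 in tori 35-7, beside 12.9% and 9.55% of all genes. The median difference of the 4 was 0.48 in Col-0 and 0.16 in tori 35-7. On control medium FMA averaged 4.77 in tori 35-7 and 5.55 in Col-0, which did not pass (adjusted p = 0.077). The sum of the 2 root hair markers ran from 4.73 to 4.92 under water deficit and 4.67 to 4.83 on control medium in tori 35-7. In Col-0 it ran from 4.89 to 4.99 under water deficit and 4.82 to 4.93 on control medium. Under water deficit LHCB4.2 was also 0.88 ± 0.15 higher in tori 35-7 than in Col-0 (adjusted p = 0.0198). The part of these markers in the values of GSTU25 and the other members was not tested.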

How the data were processed

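Total RNA of whole seedlings was hybridised to 12 Affymetrix arrays. For each array the deposited table gives a single value per probe set, from 1.13 to 13.2. It names no scale, and the values were taken as log2. The submitters' processing notes name Transcriptome Analysis Console 4.0.1 as the authors' software. Which background correction, normalization and summarization were run is not stated in the labels, and how far they shape the values cannot be judged. All 12 columns were mapped by their labels.

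Of the 38408 probe sets, 17481 are annotated, 16722 of them to 1 gene, and 54.5% are unnamed here. RefSeq's TAIR10.1 gene table supplied current names for 16411 genes. Where a gene had several probe sets, the one with the highest mean over the arrays was kept, which left 16550 genes. Each member has 1 probe set. All 12 arrays entered a single limma 3.58.1 fit (lmFit, eBayes, R 4.3.3) with a mean for each of the 4 groups and no covariates, and p-values were adjusted over all 16550 genes, two-sided. The limma fit alone was tested on simulated data. For each gene these had independent noise of the same spread on all 12 arrays, so arrays of narrow spread were not imitated.

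Members are named with values if they passed in any comparison, were among the 6 largest differences in each direction for a response to water deficit or the 3 largest for genotype and interaction, had the highest or lowest mean level, or had one of the 3 smallest p of their class. For other lists the rule is up to 3 genes of smallest p. The members, lists and tests were chosen with earlier results of these data known, GSTU25 among them. The alternatives were quantile normalization, centring, a filter on dim genes, trended and robust priors, array weights, fits on 6 arrays, a replicate block, averaging the probe sets of a gene, all probe sets, a 2-fold minimum, and arrays left out. Promoter and protein sequences were not used here.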

Additional observations from a re-analysis of the deposited data

How the results depend on the processing

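GSTU25 was called in both water-deficit comparisons under all 22 alternatives, with adjusted p up to 0.00534 in tori 35-7 and 0.00392 in Col-0. For Col-0 the count of called members was 2 instead of 1, with CYP71B34 added, with quantile normalization, centring on the median, the filter on dim genes, trended and robust priors, and the replicate block, and it was 3, with GSTU22 and GSTU27 added, without the 2 arrays of narrow spread. With 1 array left out it ran from 1 to 2. For tori 35-7 it was 2, with GSTU22 added, with quantile normalization, array weights and only the 6 arrays compared, and ran from 1 to 2 with 1 array left out. Between genotypes on control medium it was 2 instead of 0 with array weights (GSTU25 and CYP71B26) and 1 with the replicate block (GSTU25), and 0 with each array left out. Under water deficit it ran from 0 to 1 with 1 array left out, the 1 being GSTU20. For the interaction it was 0 in all settings. Over all genes the count called was 192 for water deficit in tori 35-7 (70 to 668 over the alternatives), 203 in Col-0 (39 to 461), 136 for genotype under water deficit (8 to 444), 94 on control medium (11 to 421) and 1 for the interaction (0 to 2). No call of a member was lost, and the causes of the added calls were not tested. Whether the arrays of a replicate block shared more than a number is not in the labels. Of 18 same-numbered pairs of arrays, 3 had deviations correlated above 0.1, the highest at 0.40, with a median of 0.01. Under that block GSTU25 was 0.73 higher in tori 35-7 than in Col-0 on control medium (adjusted p = 0.0308). The 3 arrays per group and the signal of the 23 dim probe sets limit what can be detected.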
